A study of Arabidopsis thaliana with 48 samples.

Results

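Rosette leaves of the Arabidopsis thaliana mutant myb30 were compared after 30 min of high light given to only some of the leaves of a plant: the lit leaves (labelled local) against the leaves of the same plants kept out of that light (labelled systemic). Each kind of leaf has 3 libraries, so the comparison rests on 6 of the 48 libraries of the series. Described are all 19556 genes with a mean normalized read count of at least 10 over the series, out of 32833 genes listed. The genotype is labelled as a knockout of MYB30 without naming the allele, and wild type Col-0 (Col) leaves treated alike are used for contrast. All plants were 4 weeks old, grown on soil in 10 h of light and 14 h of dark at 21 to 24 °C, and each library is a pool of 20 plants, so no single plant is seen. The other groups used are myb30 at 0, 2 and 8 min and Col at 30 min, each with 3 local and 3 systemic libraries. In the 6 Col libraries titled 30 min the time field of the labels reads 0 min, and the title was followed. Nothing states that the 3 libraries of a group came from separate experiments, so p-values here speak of the spread between these libraries, which may be technical.

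A pair of 0 min libraries went against their labels. Leaving systemic leaves at 0 min aside, 8 genes separated all 21 libraries of Col from all 21 of myb30. In them Col systemic 0 min replicate 3 and myb30 systemic 0 min replicate 3 lay nearer the other genotype in 100% of the genes. The other systemic 0 min libraries, which had no part in picking the genes, stood at 0%. Libraries used to pick the genes stood at 12.5% at most, a low share that the picking itself favours. WRKY40, a stress-induced factor, read 3317 in that myb30 library, 1897 in Col local 0 min replicate 3 and 496 in Col systemic 0 min replicate 1, and 33.6 to 60.9 in the other 0 min libraries. These libraries enter the lit against unlit comparison at 30 min only through the shared estimate of the spread, and without the 3 high ones 8267 genes were called in place of 8205.

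High light raises the temperature and the excitation pressure in a leaf. Heat shock factors then drive the genes of chaperones, which hold unfolding proteins and refold them, and peroxidases such as APX2 remove hydrogen peroxide made by overexcited chloroplasts. Light itself is read by photoreceptors, which act through HY5 and the B-box proteins to raise pigment and sunscreen genes and through the PIF factors to hold down growth genes. MYB30 is an R2R3-MYB factor known from work on hypersensitive cell death and on very-long-chain fatty acid genes.

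The 6 libraries held 75790327 to 82878085 reads in genes, and 22450 to 23117 genes had at least 1 read. The leaf label held against the mesophyll, root and seed markers: RBCS1A and RCA, which encode the Rubisco small subunit and Rubisco activase, were among the best-read genes (1129469 to 1219722 in lit and 1117960.2 to 1497108 in unlit libraries for RBCS1A), the summed level of 4 root markers was 0 to 1.07, with PLT1 and RHD6 at 0, and that of 2 seed markers was 0 to 3.20. The 4 flower markers were read more, with a summed level of 55.2 to 87.5 in lit and 73.7 to 116 in unlit libraries. Only 1 of them was tested, and it was not called. MYB30 transcript was present in the mutant. It read 219, 176 and 217 in the lit libraries and 512, 543 and 469 in the unlit libraries, so it was lower in the lit leaf (log2 difference -1.32 ± 0.22 SE, adjusted p = 6e-06). Col read 272 ± 43.7 in lit and 729.6 ± 26.6 in unlit leaves (SD, n = 3). Since the position of the lesion is not given in the sources used here, these reads do not check the genotype label.

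Lit and unlit leaves of myb30 differed in a large share of the genes. With limma, 4032 genes (20.6% of those tested) were higher and 4173 (21.3%) were lower in the lit leaf at an adjusted p under 0.05, 42.0% in all. Counts of list members given below stand beside these shares. Most differences were modest: the median fold was 1.41 among the higher and 1.46 among the lower genes. Only 500 genes (2.56%) were higher and 274 (1.4%) lower by significantly more than 2-fold, 3.96% in all. The extremes were lopsided, with 66 genes more than 5 log2 units higher and 1, ATCTH, more than 5 log2 units lower. The 6 libraries did not overlap between leaves in 48.3% of all genes. Both splits depend on scaling. With each library scaled to the same total, limma called 2040 genes (10.4%) higher and 8728 (44.6%) lower, and the median gene then lay at -0.23 in place of -0.02 on the log2 scale. Past 2-fold, equal totals left 384 higher and 392 lower genes, and the 6 libraries fitted alone gave 445 higher and 158 lower. Before the light, at 0 min, 0 genes (0.0%) differed between local and systemic leaves of myb30 by limma and 0 by edgeR. DESeq2 called 1, and 1094 genes had an unadjusted p under 0.05 by limma.

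**Figure D1:**
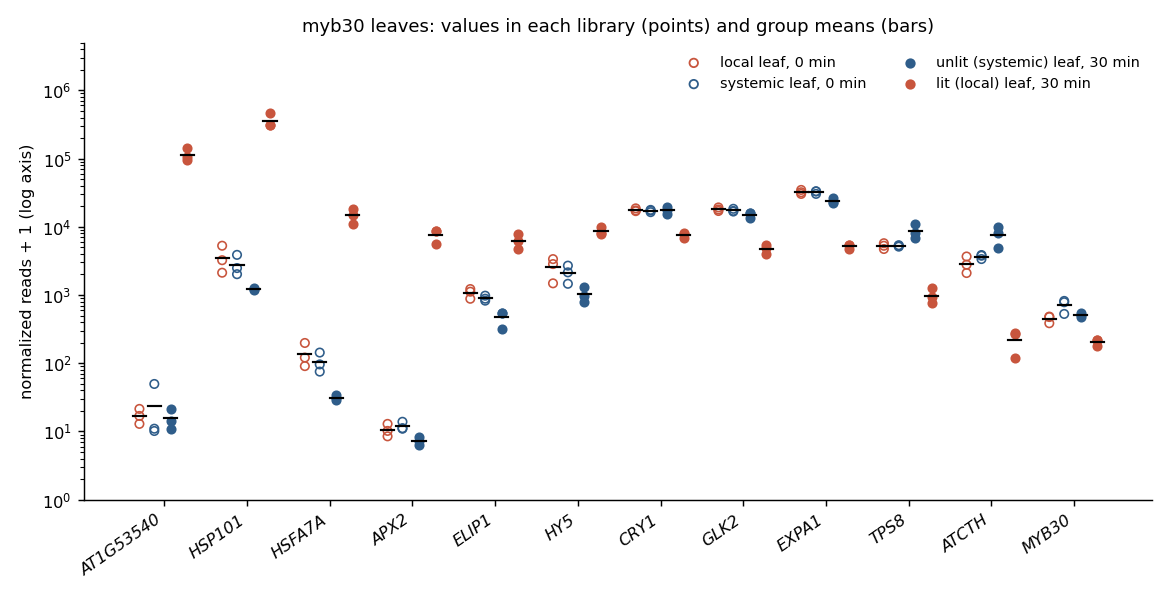
Normalized reads plus 1 (log axis) of 12 genes in myb30 libraries: open points are the 0 min libraries, filled points those at 30 min, red the local or lit leaf, blue the systemic or unlit leaf, and bars the group means. Filled red points of AT1G53540 lie at 96065 to 140530.3 against 9.77 to 20.4 in the unlit leaf, and those of ATCTH at 119.9 to 272 against 4941 to 9809.8.

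Small heat shock proteins, which bind unfolding proteins and keep them from clumping, gave most of the largest differences. Genes were ranked among those whose mean reached 50 in the leaf where they were higher, with more than 3 reads in each library. No overlap between the leaves was also required, so separation of the leaves in the ranked genes was set by that rule. Small heat shock proteins made up 9 of the 12 highest, the others being APX2, BAG6 and HSFA7A. All 8 cytosolic genes and all 6 tested genes of the list for organelles and peroxisomes were higher in the lit leaf, with list medians of 10.21 and 11.50 log2 units beside -0.02 over all genes tested. AT1G53540, a cytosolic HSP20-like chaperone, read 96065, 140530.3 and 107236 in the lit libraries and 13.3, 9.77 and 20.4 in the unlit libraries. The 6 libraries fall into 2 clusters by leaf with no value between them (log2 difference 12.89 ± 0.89 SE, adjusted p = 1.1e-14). HSP17.6A read 81204, 110766 and 94189 in the lit libraries and 36.9, 21.3 and 32.8 in the unlit libraries (log2 difference 11.60 ± 0.75 SE, adjusted p = 1.6e-15). A similar gap separated the leaves for AT1G07400, at 112898 to 154551 in lit and 50.2 to 84.2 in unlit libraries (log2 difference 10.97 ± 0.58 SE, adjusted p = 7.2e-18). HSP17.4, another cytosolic member, read 12372, 16420.1 and 15509 in the lit libraries and 20.5, 9.77 and 16.8 in the unlit libraries. Its lowest lit library lay far above its highest unlit one (log2 difference 9.84 ± 0.74 SE, adjusted p = 1.4e-13). Further members among those 12 genes were HSP17.6II (10.59), AT1G52560 (9.78), AT2G29500 (9.23), AT1G59860 (9.18) and AT5G37670 (8.80, a peroxisomal member), each with an adjusted p of 1e-17 or smaller.

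Some members made for chloroplasts, mitochondria and the endoplasmic reticulum were close to silent in the unlit leaf. The whole organelle list summed to 209 to 226 in unlit libraries, so other members were read there. HSP21, the chloroplast small heat shock protein, read 7787, 13609.7 and 8324 in the lit libraries and 0 in each of the 3 unlit libraries. Set against a floor of 3 reads per library, its mean was at least 3557-fold higher in the lit leaf. With HSP21 held at that bound the median of the organelle list is 10.79. HSP23.6-MITO, the mitochondrial member, read 61238, 89835 and 68664 in the lit libraries and 2.05, 8.88 and 3.54 in the unlit libraries. ATHSP22.0, a member of the endoplasmic reticulum, read 21123, 35189 and 25205 in the lit libraries and 2.05, 1.78 and 0 in the unlit libraries. No fold is given for these, whose unlit libraries hold only a few reads.

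Promoters of a few of these genes are printed because their genes moved together and heat shock factors bind a known element, repeats of GAA and TTC placed head to head. The sequences are the 250 bases before the annotated gene start in RefSeq's TAIR10.1, read 5′ to 3′ on the gene's strand, with capitals marking matches to GAANNTTC or to its extension by a further unit (GAANNTTCNNGAA or TTCNNGAANNTTC). The submitters' processing notes name TAIR10, and genes were matched by locus identifier. HSP17.4 lies at chr3:16984868-16985117 (minus strand), HSFA7A at chr3:19264891-19265140 (plus strand), the DnaJ-domain gene AT1G71000 at chr1:26770178-26770427 (minus strand), and HSP18.2, for contrast, at chr5:24062073-24062322 (plus strand).
HSP17.4: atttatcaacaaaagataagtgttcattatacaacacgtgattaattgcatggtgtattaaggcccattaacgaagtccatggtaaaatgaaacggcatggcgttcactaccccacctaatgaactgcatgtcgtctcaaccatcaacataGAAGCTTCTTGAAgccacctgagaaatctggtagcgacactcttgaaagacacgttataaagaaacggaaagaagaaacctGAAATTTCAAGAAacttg
HSFA7A: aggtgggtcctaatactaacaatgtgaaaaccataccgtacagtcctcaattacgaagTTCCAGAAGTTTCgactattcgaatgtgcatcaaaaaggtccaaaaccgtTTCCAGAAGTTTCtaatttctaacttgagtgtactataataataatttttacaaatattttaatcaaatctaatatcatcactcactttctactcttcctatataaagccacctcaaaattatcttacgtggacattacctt
AT1G71000: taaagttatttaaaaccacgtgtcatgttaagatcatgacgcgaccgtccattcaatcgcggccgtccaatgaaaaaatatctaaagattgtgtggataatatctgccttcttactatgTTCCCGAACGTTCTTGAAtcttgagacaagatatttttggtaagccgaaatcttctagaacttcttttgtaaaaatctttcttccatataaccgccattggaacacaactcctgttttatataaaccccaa
HSP18.2: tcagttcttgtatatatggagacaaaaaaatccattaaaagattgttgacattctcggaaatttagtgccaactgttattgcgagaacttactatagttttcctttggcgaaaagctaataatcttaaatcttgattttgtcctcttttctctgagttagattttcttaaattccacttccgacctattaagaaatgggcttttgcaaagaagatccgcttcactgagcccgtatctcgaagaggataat

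HSP17.4 and HSFA7A each carry separate matches in more than a single place, those of HSP17.4 beginning 99 and 18 bases before the gene start. HSP18.2 has no match in its window and was 8.11 log2 units higher in the lit leaf. Most listed chaperone genes lack the 3-unit element there: it stood in 2 of 8 cytosolic small heat shock, 0 of 6 organelle and 1 of 14 large chaperone promoters. Searched on both strands, it stood in 4.01% of 474 promoters of protein-coding genes more than 2-fold higher in the lit leaf, in 0 of 262 promoters of genes more than 2-fold lower, and in 0.424% of all 18846 promoters of the same length. For GAANNTTC alone, which every 3-unit match contains, the shares were 15.6%, 8.78% and 9.49%. The G-box CACGTG, to which HY5 and the PIF factors bind, stood in 15%, 4.96% and 7.52%. A match is a run of letters and not a shown binding site, and the window of HSP18.2 overlaps the neighbouring gene AT5G59710.

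The large chaperones and their partners followed, with all 14 listed genes higher and a median of 6.96. HSP101, which pulls proteins out of aggregates, read 310262, 467683 and 306491 in the lit libraries and 1165, 1221 and 1285 in the unlit libraries (log2 difference 8.18 ± 0.37 SE, adjusted p = 6.1e-20). HSP90.1, the stress-induced cytosolic HSP90, read 312732, 397683 and 268949 in the lit libraries and 900.3, 843 and 1430.1 in the unlit libraries (log2 difference 8.29 ± 0.37 SE, adjusted p = 5.4e-20). The leaves did not overlap for either gene, with folds of 289.6 and 313 on the log2(value + 1) scale. BAG6, a co-chaperone, was 8.98 and Hsp70b 8.15 log2 units higher. The members that differed least were the constitutive ones: HSC70-1 read 459777, 541079 and 406791 in the lit libraries and 161116, 150461 and 147554 in the unlit libraries (log2 difference 1.61 ± 0.15 SE, adjusted p = 4.5e-11), and HSP90.3 was 2.59 log2 units higher. The DnaJ-domain gene AT1G71000 read 22811, 35439 and 26186 in lit and 3.07, 3.55 and 4.43 in unlit libraries.

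Of 16 heat shock factors tested, 9 were higher and 3 lower. Those higher by most were factors that are themselves heat-induced. HSFA2 read 111135, 155179.7 and 143324 in the lit libraries and 375, 553 and 525 in the unlit libraries (log2 difference 8.14 ± 0.59 SE, adjusted p = 3.4e-14), and HSFA7A read 10913, 18129.8 and 14925 in the lit libraries and 29.7, 27.5 and 32.8 in the unlit libraries (log2 difference 8.86 ± 0.41 SE, adjusted p = 9.8e-20). AT-HSFA7B was nearly unread in the unlit leaf, at 1.02, 0.89 and 0, against 1355, 2260.1 and 1808 in the lit leaf. HSFB1 (symbol HSF4), a repressor that shapes the response, was 4.23 and HSFB2B 3.29 log2 units higher. Among the class A1 factors, which start the response and are held in check as proteins, HSFA1E was 1.44 and HSFA1D 0.42 log2 units higher. HSFA1A (symbol HSF1) was slightly lower, at 314 to 378 in lit and 420.0 to 437 in unlit libraries (log2 difference -0.29 ± 0.08 SE, adjusted p = 0.0037). HSFA6A, known for drought and abscisic acid responses, went against the list with a lit mean of 6.70 ± 2.55 and an unlit mean of 39.5 ± 14.6 (SD, n = 3; log2 difference -2.37 ± 0.41 SE, adjusted p = 1.2e-05), as did HSFB4 (-0.64).

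All 5 tested members of the DREB2, MBF1C and galactinol synthase list were higher. DREB2A, a factor shared by drought and heat responses, read 5783, 9965 and 9003 in the lit libraries and 87.1, 85.2 and 146 in the unlit libraries (log2 difference 6.27 ± 0.27 SE, adjusted p = 2.5e-20). MBF1C, a coactivator needed for heat tolerance, was 6.06 log2 units higher, and GolS1, which makes the precursor of raffinose sugars, was at 57215 to 96377 in lit and 2667 to 7025 in unlit libraries. In the endoplasmic reticulum folding list 10 of 13 genes were higher and 0 lower (median 0.77), among them the lumenal HSP70s BIP1 (2.38) and BIP2 (2.03), the J-protein ATERDJ3A (6.89) and BZIP28, a sensor of misfolded proteins (1.42). BIP1 and BIP2 are close copies, and reads could be split between them.

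Antioxidant enzymes split into a few large differences and many small ones, with 14 of 25 higher, 0 lower and a median of 0.21. APX2, the cytosolic ascorbate peroxidase known as a marker of excess light, read 5660.2, 8559 and 8635 in the lit libraries and 7.17, 5.33 and 6.20 in the unlit libraries. No unlit library passed 7.17 (log2 difference 10.02 ± 0.39 SE, adjusted p = 8.9e-22). APX1, its constitutive relative, was already at 22193 to 30606 in unlit leaves and reached 90905 to 113108 in lit ones (log2 difference 1.93 ± 0.13 SE, adjusted p = 3.4e-15). GPX6 and GPX7, glutathione peroxidases, were 1.90 and 1.70 log2 units higher. With libraries scaled to the same total the list's median is 0.00, with 9 members higher and 6 lower. Of 11 glutathione transferases 4 were higher and GSTU10 lower, led by GSTU5 at 148537 to 207884 in lit and 22268 to 47883 in unlit libraries (log2 difference 2.58 ± 0.22 SE, adjusted p = 2.4e-12). Over all genes 20.6% were called higher and 21.3% lower.

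Genes that answer to mitochondrial stress were higher in 5 of 8 cases. AOX1A, the alternative oxidase that bypasses part of the respiratory chain, read 7828, 9102 and 6579 in the lit libraries and 3263, 2915 and 3382 in the unlit libraries (log2 difference 1.29 ± 0.13 SE, adjusted p = 4.5e-10), and its regulator NAC13 was 2.07 log2 units higher. Transcripts of the mitochondrial genome itself were higher in the lit leaf for 40 of 42 genes tested, with a median of 1.50. Their share of all reads was 0.0378% to 0.049% in lit and 0.0219% to 0.0274% in unlit libraries. Of 86 chloroplast-encoded genes 24 were higher and 1 lower (median 0.30), but 5 higher and 4 lower with equal totals (median 0.09), and leaving out 1 library gave 13 to 32 higher. The shares over all genes were 20.6% higher and 21.3% lower, or 10.4% and 44.6% with equal totals. What share of organelle reads reflects the way libraries were made was not tested.

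**Figure D2:**
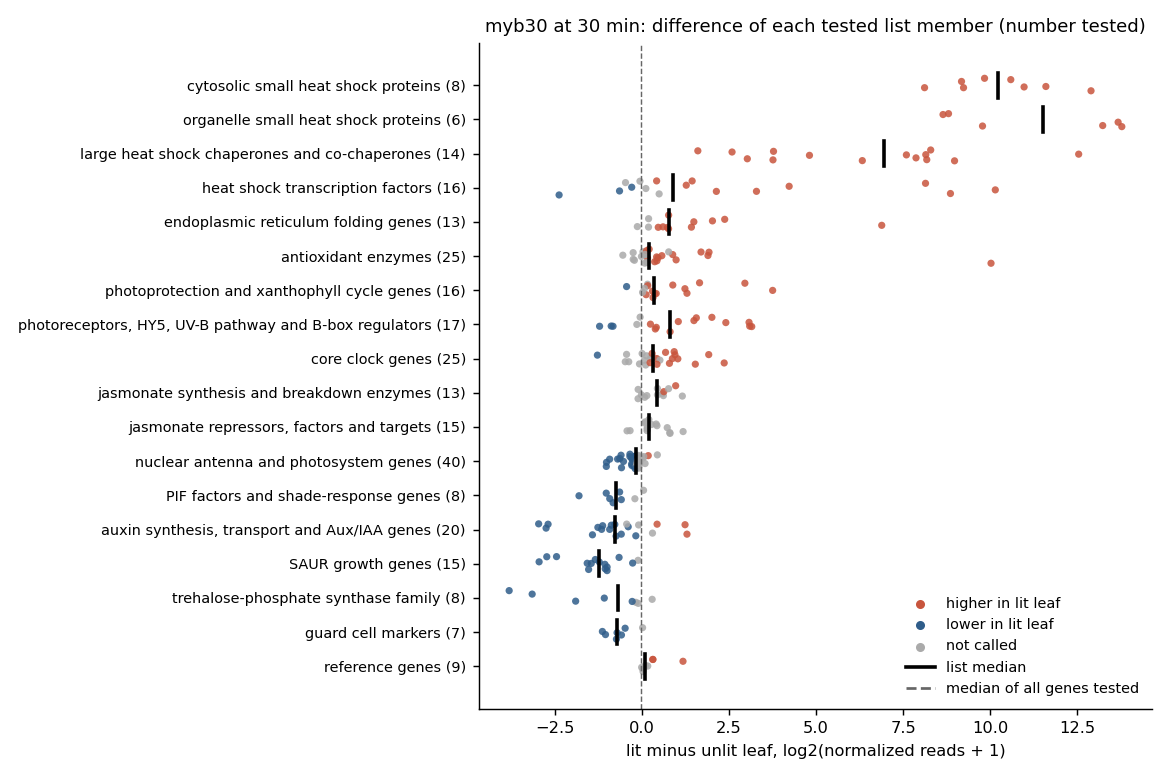
Lit minus unlit difference in myb30 at 30 min, on the log2(normalized reads + 1) scale, of each tested member of 18 gene lists (number tested in brackets), coloured by call, with list medians as bars and the median of all genes as a dashed line. The 3 chaperone lists reach medians of 10.21, 11.50 and 6.96, while the SAUR list lies at -1.22.

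Light signalling genes were mostly higher in the lit leaf. In the list of photoreceptors, HY5, the UV-B pathway and B-box regulators 12 of 17 were higher and 3 lower (median 0.81). HY5, the bZIP factor that promotes light responses, read 8217, 7771 and 9873 in the lit libraries and 970.0, 785 and 1322 in the unlit libraries (log2 difference 3.10 ± 0.25 SE, adjusted p = 9.6e-13). Its relative HYH was 2.01, the B-box genes BBX31 and BBX32 were 3.15 and 3.08, and RUP1, which switches the UV-B receptor off, was 2.41 log2 units higher. The blue light receptors went the other way. CRY1 read 6742, 7845 and 7986 in the lit libraries and 15189.9, 19636 and 17628 in the unlit libraries (log2 difference -1.21 ± 0.07 SE, adjusted p = 6.9e-17), and CRY2 (-0.83) and BBX21 (-0.88) were lower as well.

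Photoprotection genes were higher in 12 of 16 cases and lower in 1 (median 0.35). With equal totals 7 higher and 4 lower were called (median 0.13), and with quantile normalization 6 higher and 4 lower (median 0.01). ELIP1, an early light-induced protein that is thought to bind free chlorophyll, read 4769, 7843 and 6141 in the lit libraries and 545, 315 and 540.5 in the unlit libraries (log2 difference 3.75 ± 0.20 SE, adjusted p = 4.9e-18), and ELIP2 was 2.96 log2 units higher. The β-carotene hydroxylases BETA-OHASE 2 and BETA-OHASE 1 were 1.66 and 1.30, and the photosystem II repair protease subunit FTSH8 1.24 log2 units higher. NPQ1, the violaxanthin de-epoxidase, was the member that went lower, at 3808 to 4236 in lit and 5030.2 to 5599 in unlit libraries (log2 difference -0.44 ± 0.10 SE, adjusted p = 0.00035). SIGE (SIG5), a light-induced sigma factor of the chloroplast RNA polymerase, was 2.08 log2 units higher.

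Genes of the photosynthetic apparatus were called lower far more often than higher: 19 of 40 nuclear antenna and photosystem genes were lower and 1 higher (median -0.16). The count depends on scaling and on the fit, at 0 higher and 36 lower with equal totals (median -0.37), 0 higher and 35 lower with quantile normalization (median -0.45) and 0 higher and 10 lower with the 6 libraries fitted alone. CAB2, an antenna protein of photosystem II, read 330753, 412034 and 391967 in the lit libraries and 594008, 634567 and 601310.0 in the unlit libraries (log2 difference -0.70 ± 0.07 SE, adjusted p = 8.8e-11). LHB1B1 was -1.02, LHCB2.3 -1.01 and the plastocyanin gene PETE1 -0.92. The LHCB1 genes are near-identical copies, so their separate values are uncertain. PETC was the higher one, at 0.18, and turned to -0.25 after quantile normalization and -0.03 with equal totals. GLK2, an activator of antenna genes, read 3970.1, 5434 and 4914 in the lit libraries and 13259, 15844 and 15917 in the unlit libraries (log2 difference -1.66 ± 0.11 SE, adjusted p = 5.8e-15). PORA and PORB, which reduce protochlorophyllide on the way to chlorophyll, were -2.07 and -1.79. Of 18 Calvin cycle genes 7 were called slightly higher and 0 lower (median 0.17), led by FBA1 (0.53), but the list's median turned to -0.04 with equal totals (1 higher and 5 lower) and -0.15 with quantile normalization (3 higher and 7 lower).

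Clock genes were higher in 13 of 25 cases and lower in 1 (median 0.32). GI, an afternoon gene of the clock, read 9748, 9855 and 8289 in the lit libraries and 2834, 1904 and 2722 in the unlit libraries (log2 difference 1.92 ± 0.22 SE, adjusted p = 4.6e-09). EPR1 (2.36), PRR9 (1.53) and the morning factor CCA1 (0.95) were higher too, and the TCP factor AT5G08330 (CHE), a repressor of CCA1, was lower (-1.28). The flavonol regulators MYB11, MYB12 and MYB111 were 3.69, 3.38 and 3.01 log2 units higher, and MYB111 read 195, 149 and 299 in the lit libraries and 18.4, 20.4 and 39.0 in the unlit libraries. In the whole phenylpropanoid list 9 of 21 genes were higher and 2 lower, or 6 higher and 4 lower with equal totals.

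Of 7 genes induced by darkness or sugar starvation 4 were lower and 1, DIN9, higher (median -1.24). ASN1 (DIN6), the asparagine synthetase raised in starved leaves, read 482, 689 and 514 in the lit libraries and 1515, 2648 and 1613 in the unlit libraries (log2 difference -1.75 ± 0.27 SE, adjusted p = 1.8e-06). DIN10 was -2.01 and SEN1 -1.29. In the trehalose-phosphate synthase family, whose class II members are repressed by sugar, 5 of 8 were lower and 0 higher (median -0.68). TPS8 read 761, 1246 and 921 in the lit libraries and 6757, 11151 and 8088 in the unlit libraries (log2 difference -3.15 ± 0.15 SE, adjusted p = 3.4e-19), and TPS11 read 354, 533 and 358 in the lit libraries and 4424, 7133 and 5932 in the unlit libraries (log2 difference -3.81 ± 0.16 SE, adjusted p = 1e-20). TPS9 (-1.90) and TPS10 (-1.08) were lower by less.

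Of 8 PIF and shade-response genes 6 were lower and 0 higher (median -0.73), with PIL5 (PIF1), a repressor of seedling greening, at 404 to 553 in lit and 1495 to 2115 in unlit libraries (log2 difference -1.80 ± 0.11 SE, adjusted p = 1.8e-16). Of 20 auxin genes 14 were lower and 3 higher (median -0.76). IAA29, a target of the PIF factors, had a lit mean of 24.1 ± 8.03 and an unlit mean of 213 ± 136 (SD, n = 3; log2 difference -2.96 ± 0.34 SE, adjusted p = 3.4e-09), and the auxin synthesis genes YUC8 and YUC9, with few reads in the lit leaf, were at 22.2 to 43.5 and 13.3 to 35.5 in unlit and 2.35 to 5.40 and 1.17 to 3.24 in lit libraries. IAA6 (1.30), IAA2 (1.24) and AXR3 (0.44) were the higher ones. SAUR genes, which encode small auxin-induced proteins tied to cell growth, were lower in 14 of 15 cases (median -1.22). SAUR22 read 35.7, 29.3 and 49.1 in the lit libraries and 269, 333 and 283 in the unlit libraries (log2 difference -2.95 ± 0.19 SE, adjusted p = 1.2e-15). SAUR19 to SAUR24 are near-identical neighbours, and reads could be split among them. In the cell wall expansion list 7 of 19 genes were lower, 1, XTH9, higher and 11 not called (median -0.34), with 1 higher and 14 lower under equal totals. EXPA1, an expansin that loosens cell walls, read 4784, 5398 and 5417 in the lit libraries and 23096, 26409 and 22394 in the unlit libraries (log2 difference -2.20 ± 0.11 SE, adjusted p = 2.7e-18), and EXPA8 was -1.97.

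Guard cell markers were lower in 6 of 7 cases (median -0.71), their summed level being 3697 to 4081 in lit and 6181 to 6511 in unlit libraries. FMA, a regulator of guard cell identity, read 493, 514 and 479 in the lit libraries and 1043, 1034 and 987 in the unlit libraries (log2 difference -1.04 ± 0.08 SE, adjusted p = 3.8e-13). KAT1, a potassium channel of guard cells, was -0.73. Between the leaves at 0 min the list's median was -0.16, and from 0 to 30 min its median change was -0.66 in lit and 0.01 in unlit leaves. The libraries are of whole leaves, and whether cell numbers or transcript per cell differed was not tested. Of 6 markers of the epidermis, trichomes and myrosin cells 1 was lower, PDF1, or 3 with equal totals, and vascular markers higher in 1 and lower in 2 of 8. These counts stand beside 20.6% higher and 21.3% lower over all genes, or 44.6% lower with equal totals. Summed levels of mesophyll markers overlapped, at 3685365 to 4248730.4 in lit and 3537954 to 4184172 in unlit libraries. The part of cell make-up in these results was not tested. Reference genes were not all flat: GAPC1, a glycolytic enzyme, was at 73369 to 83434 in lit and 31232 to 36132 in unlit libraries, 3 of 9 in all being higher, and the list's median of 0.10 turned to -0.12 with equal totals. UBC9 (0.32) and ACT2 (0.31) were higher by less, ACT2 turning to -0.11 under quantile normalization.

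Among relatives of MYB30, 3 of 11 tested R2R3-MYB genes were higher and 4 lower, beside 20.6% and 21.3% of all genes. MYB13 read 2548, 2284 and 3257 in the lit libraries and 402, 352 and 555 in the unlit libraries (log2 difference 2.64 ± 0.37 SE, adjusted p = 2.3e-07), and MYBR1 (MYB44), an abscisic acid response factor, was 2.05. MYB94, an activator of wax synthesis, was lower, at 191 to 276 in lit and 323 to 611 in unlit libraries, while MYB96, with a similar role, was higher (0.60). Of 20 very-long-chain fatty acid, wax and cuticle genes 4 were lower and 0 higher (median -0.25): the alcohol-forming reductase CER4 (-2.03), LACS1 (-0.81), KCS20 (-0.57) and the wax exporter ABCG12 (-0.53). That count stands beside 21.3% of all genes called lower. It rose to 12 lower genes with equal totals, 9 with quantile normalization and 7 with the 6 libraries fitted alone, and 0 higher in each.

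The lowest of the genes with more than 3 reads in each library was ATCTH, a CCCH zinc finger gene. It read 119.9, 272 and 263 in the lit libraries and 4941, 9809.8 and 8118 in the unlit libraries (log2 difference -5.15 ± 0.21 SE, adjusted p = 1.6e-21), 35.6-fold lower in the lit leaf on the log2(value + 1) scale. AT3G15450, annotated as an aluminium-induced protein, read 85.4, 141 and 99.2 in the lit libraries and 1403, 3283 and 2499 in the unlit libraries (log2 difference -4.40 ± 0.24 SE, adjusted p = 9.2e-18). OFP16, a member of the ovate family of transcriptional repressors, read 47.5, 99.7 and 88.5 in the lit libraries and 1152, 1888 and 1349 in the unlit libraries (log2 difference -4.24 ± 0.21 SE, adjusted p = 5.1e-19), and its relative OFP15 was -3.66. In ATCTH, AT3G15450 and OFP16 the lowest unlit library exceeded the highest lit library, as the rule that named them required. The rest of the 12 lowest genes with more than 3 reads in each library were the ERF-type factor AT5G61590 (-4.08), the noncoding RNAs AT5G02515 (-3.85) and AT5G02865 (-3.56), TPS11, the lipase AT5G45670 (-3.76), the lipid-transfer protein AT5G48490 (-3.65), AT5G19190 (-3.56) and the thioredoxin-family gene AT3G62950 (-3.53). Strand use in the counting is not stated, so reads of the 2 noncoding RNAs cannot be told from those of overlapping genes. The precursor gene MIR167d read 3.24, 18.8 and 11.7 in the lit libraries and 245, 344 and 298 in the unlit libraries.

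Few jasmonate genes were called between the leaves, beside 20.6% higher and 21.3% lower over all genes. Of 13 jasmonate synthesis and breakdown enzymes 2 were higher, JAR1 (log2 difference 0.97 ± 0.23 SE, adjusted p = 0.00065) and ACX1 (log2 difference 0.63 ± 0.19 SE, adjusted p = 0.0082), and of 15 repressors, factors and targets 0 were called (MYC2 is listed at 0 in each of the 48 libraries). JAZ7, a repressor made when jasmonate is sensed, read 1469.6, 807 and 132 in the lit libraries and 2110.0, 531 and 118 in the unlit libraries, and the unlit values span the lit ones (log2 difference 0.08 ± 1.41 SE, adjusted p = 0.97). LOX3, a lipoxygenase of jasmonate synthesis, read 31844, 19331 and 5144 in the lit libraries and 36831, 8921 and 3792 in the unlit libraries (log2 difference 0.45 ± 0.68 SE, adjusted p = 0.64). CYP82G1, which makes a volatile homoterpene, read 845, 223 and 33.1 in the lit libraries and 1570.2, 174 and 28.4 in the unlit libraries (log2 difference -0.11 ± 1.80 SE, adjusted p = 0.97). JAZ7, LOX3 and CYP82G1 were picked after their values were seen. Within each leaf the 3 libraries of these genes stood far apart. Library 1 was highest and library 3 lowest in both lit and unlit leaves for 10 of 13 synthesis genes, 10 of 15 repressors, factors and targets and 3 of 4 terpene genes, beside 4.17% of all genes tested. With a block for replicate number in the fit, 3 of the 15 repressors, factors and targets were called higher and 1 lower. The median SD between the 3 lit libraries was 1.15 log2 units for the synthesis genes and 0.13 over all genes. Their medians against 0 min were 2.70 in lit and 2.55 in unlit leaves.

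**Figure D3:**
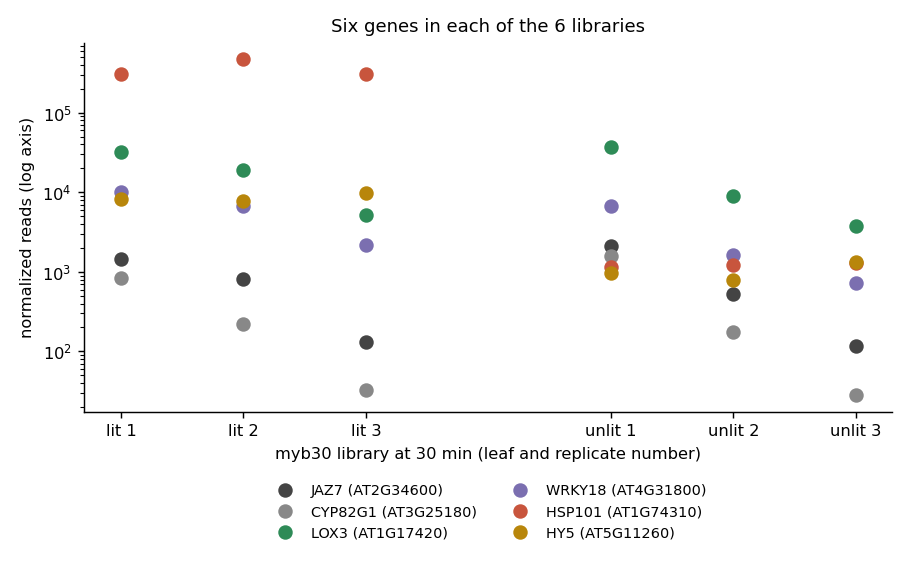
Normalized reads (log axis) of JAZ7, CYP82G1, LOX3, WRKY18 (a WRKY factor, also picked after its values were seen), HSP101 and HY5 in each of the 6 myb30 libraries at 30 min, named by leaf and replicate number. JAZ7 runs from 132 to 1469.6 among lit libraries, while HSP101 stays between 306491 and 467683.

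Other stress regulators were divided. The zinc finger repressors ZAT6 (log2 difference 3.48 ± 0.47 SE, adjusted p = 1.6e-07) and RHL41 (ZAT12) (log2 difference 3.33 ± 0.63 SE, adjusted p = 4.5e-05) were higher, 4 of 9 in their list. RHL41 read 864, 1869 and 1122 in the lit libraries and 219, 115 and 69.1 in the unlit libraries. WRKY factors were higher in 4 and lower in 2 of 17 cases, or 3 higher and 3 lower with equal totals. The list counts in this paragraph stand beside 20.6% higher and 21.3% lower over all genes, or 10.4% and 44.6% with equal totals. WRKY54, which dampens salicylate responses, was at 501 to 660.3 in lit and 1273 to 1716 in unlit libraries (log2 difference -1.31 ± 0.43 SE, adjusted p = 0.013). Of 12 salicylate and immune genes 2 were lower, PAD4 (-0.71) and NIMIN1 (-1.85), and 0 higher. CYP707A4, which breaks down abscisic acid, was 3.12 log2 units higher, and KIN1, a cold and drought response gene, 2.20. The lit libraries of CYP707A4 held 1889, 2131 and 1609, all above the unlit 238, 169.6 and 244. For glucosinolate genes, 5 of 14 were higher, but leaving out 1 library gave 0 to 7.

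Which leaf had moved was read from the means at 0 min. The lit leaf lay farther from its own 0 min mean than the unlit leaf in 77.7% of the 4032 higher and 84.1% of the 4173 lower genes. HSP101 had read 2121, 5275 and 3235 in local and 2017, 3874 and 2482 in systemic leaves at 0 min, and the unlit leaf fell below its start (log2 change -1.14, adjusted p = 0.04). HSFA7A showed the same, with 89.7, 197 and 119.9 in local and 74.3, 142 and 95.0 in systemic leaves at 0 min and a fall in the unlit leaf (-1.71, adjusted p = 0.0048). HY5 fell in unlit leaves (-1.02, adjusted p = 0.0064) and rose in lit ones (1.83, adjusted p = 2e-07). For TPS11 the unlit leaf rose (1.51, adjusted p = 8.2e-07) from 2245, 1586 and 1376 in local and 2283, 1907 and 1846 in systemic leaves, while the lit leaf fell (-2.06, adjusted p = 4.6e-13). CRY1 was at 18624, 17361 and 16959 in local and 17682, 17285 and 16386 in systemic leaves at 0 min and fell in the lit leaf (-1.23, adjusted p = 5e-17), with a change of 0.02 in the unlit leaf (adjusted p = 0.89). BMY3, a β-amylase gene, had a mean in the unlit leaf that went from 14565 at 0 min to 3320.3, against 11217 in the lit leaf. Without systemic 0 min replicate 3 the unlit changes were -1.19 for HSP101, -1.75 for HSFA7A, -0.82 for HY5 and 1.45 for TPS11.

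Tested as a change of the leaf difference from 0 to 30 min, 2224 genes (11.4%) moved up and 2214 (11.3%) down, 4438 (22.7%) in all, and with the libraries in doubt exchanged the total was 4592. Fewer genes differed at earlier times: 8 genes (0.0409%) differed between the leaves at 2 min, 6 higher (0.0307%) and 2 lower (0.0102%) in the lit leaf. At 8 min 765 (3.91%) did, 451 higher (2.31%) and 314 lower (1.61%), and at 30 min 8205. The median difference of the organelle small heat shock genes was 0.24 at 2 min, 6.95 at 8 min and 11.50 at 30 min. Light signalling genes stood at 0.10 at 8 min and trehalose-phosphate synthases at 0.00, far from their 30 min medians of 0.81 and -0.68. SAUR genes were intermediate, with -0.52 at 8 min. These medians are descriptions without a test.

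**Figure D4:**
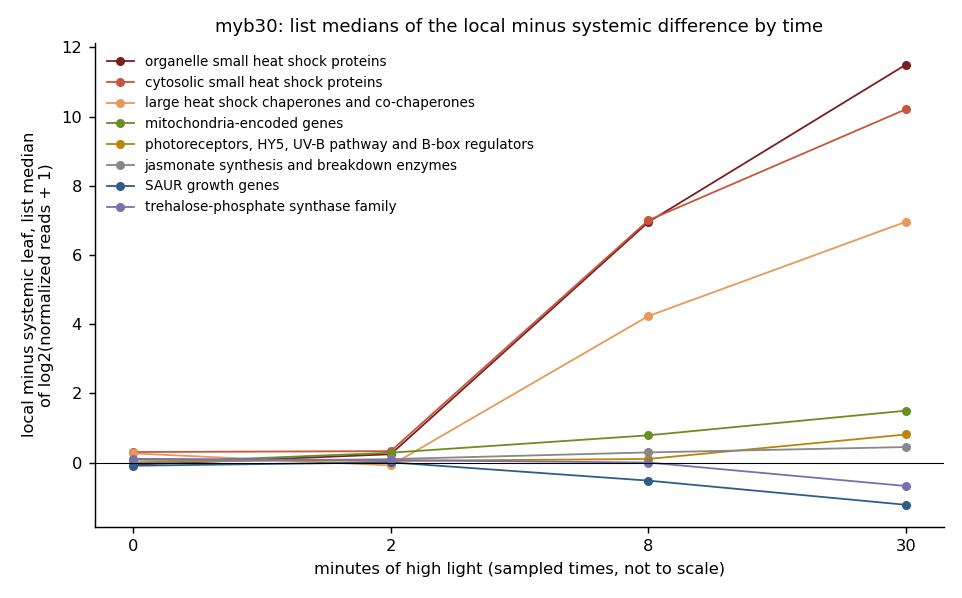
Median local minus systemic difference of 8 gene lists in myb30, on the log2(normalized reads + 1) scale, at 0, 2, 8 and 30 min (times evenly spaced, not to scale). Chaperone lists leave the zero line between 2 and 8 min, with 6.95 at 8 min for the organelle small heat shock genes and 4.23 for the large chaperones.

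Set beside Col, the myb30 leaves differed in the same direction for the genes called in both genotypes, and for 71.8% of the genes called in myb30 by less. In Col 9858 genes (50.4%) differed between lit and unlit leaves at 30 min, against 42.0% in myb30. Of the 4032 higher genes of myb30, 3751 were also called higher in Col (93% of the myb30 list and 76.6% of the Col list), and of the 4173 lower genes 3731 (89.4% and 75.2%). None was called in opposite directions. Across all genes tested the differences of the genotypes had a Pearson correlation of 0.963 and a slope through the origin of 0.836 (myb30 on Col), which stayed within 0.806 and 0.867 when each of the 12 libraries was left out in turn. Genes are not independent, and no test is attached to the slope.

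The test of the difference itself called 30 genes (0.153%), 1 (0.00511%) with a larger and 29 (0.148%) with a smaller signed difference in myb30. All 29 had been higher in the lit leaf of Col on average, and 27 were called higher in myb30 too, so the excess of the lit over the unlit leaf was smaller in myb30. The gene with the largest gap among those with a mean of at least 50 was AT3G23170, an uncharacterized protein. It read 2711, 3546 and 2761 in the lit libraries and 289.9, 279.7 and 307 in the unlit libraries in myb30, and 2899, 3308 and 3578 and 119, 101 and 116 in Col (log2 difference -1.50 ± 0.26 SE, adjusted p = 0.0077). Lit values of the genotypes overlap for it, and the unlit values do not. HSP18.2, a cytosolic small heat shock protein, read 24069, 38631 and 27183 in the lit libraries and 96.3, 95.9 and 125 in the unlit libraries in myb30. Col held 59849, 62584 and 61735 in lit and 75.6, 76.3 and 90.0 in unlit leaves, so each lit library of myb30 lay below each lit library of Col (log2 difference -1.44 ± 0.29 SE, adjusted p = 0.025). AT3G09450, of a fusaric acid resistance family, was at 2.17 in myb30 and 3.60 in Col (log2 difference -1.43 ± 0.26 SE, adjusted p = 0.011). The rhomboid-like protease RBL14 (-0.97) and the F-box gene AT4G34550 (-0.95) completed the 5 lowest. NAC13, GSTU19, the Derlin DER1 and the mitochondrial protease ftsh4 were among the rest, at -0.71, -0.60, -0.65 and -0.52, picked after their values were seen.

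The 1 gene with a larger value was the remorin gene AT1G53860, with few reads, at -1.68 in myb30 and -4.04 in Col (adjusted p = 0.047). Among genes with a mean of at least 50 the 3 with the smallest p in that direction missed the threshold: AT3G51710 (log2 difference 1.42 ± 0.32 SE, adjusted p = 0.056), AT3G53380 (log2 difference 0.52 ± 0.12 SE, adjusted p = 0.074) and MCCA (log2 difference 0.41 ± 0.10 SE, adjusted p = 0.091). How many genes are called rests on the fit. It was 1 with the 12 libraries at 30 min fitted alone, 65 with DESeq2 and 212 with a replicate block. Leaving out 1 of the 12 libraries gave 7 to 78. The split of 1 larger and 29 smaller signed differences became 36 and 176 with the block. It was 19 and 51 without myb30 systemic replicate 2, and 2 and 5 with quantile normalization. Smaller differences were the more frequent in each. The chaperone lists had 1 call between them, HSP18.2, with median values of myb30 minus Col of -0.80, -0.80 and -0.46 beside -0.01 over all genes, of which 52.2% had a negative value.

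**Figure D5:**
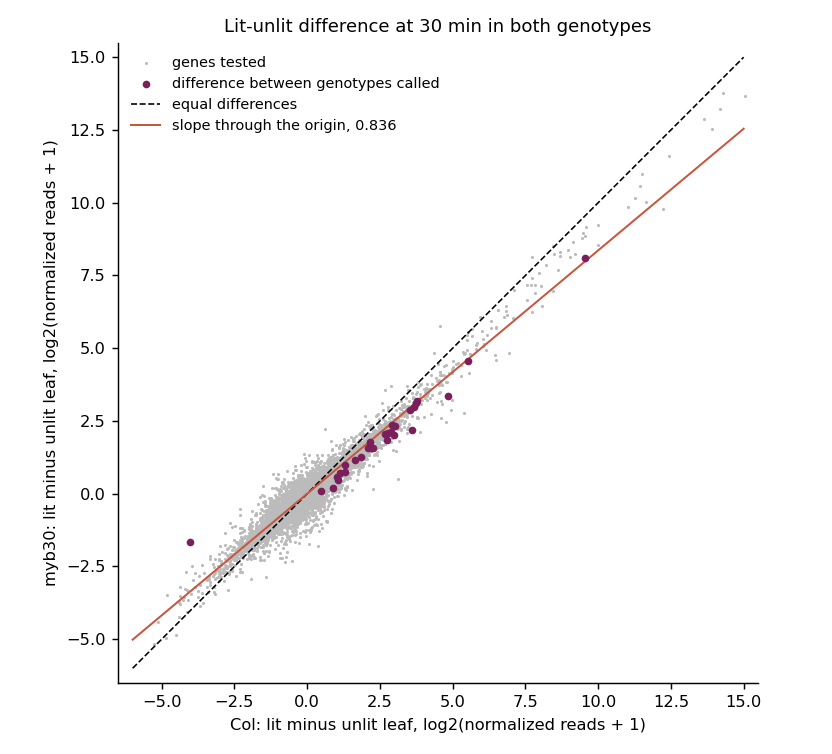
Lit minus unlit difference at 30 min of each gene tested, in Col (horizontal) and myb30 (vertical), both on the log2(normalized reads + 1) scale, with the line of equal differences, the line through the origin with slope 0.836 and the 30 called genes in purple. Points lie along both lines, and 29 of the purple points lie below the line of equal differences.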

How the data were processed

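Transcript abundance per gene was measured by RNA sequencing in 48 libraries, 3 in each of 16 groups. The deposited values are signal per gene, with reads divided by 1 factor per library: 100% of 1084756 values above 0 are whole multiples of 1 read within 1e-06. These factors equal DESeq2's median-of-ratios size factors of the recovered reads, to a relative difference of 5.3e-15 at most. Per the submitters' processing notes, cutadapt 1.18, FastQC 0.11.7, STAR 2.4.0.1 and DESeq2 1.20.0 were used with the TAIR10 genome. The sources used here name neither the counting program nor its use of strand. Total RNA was extracted and libraries followed standard Illumina protocols, per the labels' protocols.

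Groups follow the titles. Values were taken as log2(value + 1), and genes with a mean of at least 10 over the 48 libraries were fitted with limma 3.58.1 in R 4.3.3 (empirical Bayes with a mean trend, 1 fit of 16 group means), with Benjamini-Hochberg adjustment over all 19556 genes and a threshold of 0.05. Calls past 2-fold used limma's treat. Alternatives were DESeq2 1.42.0 and edgeR 4.0.16 on the recovered reads, other pseudocounts, filters and scalings, smaller fits, a replicate block and leaving out each library. Same-numbered local and systemic libraries of myb30 at 0 min had weakly correlated deviations over genes (0.158, 0.111 and 0.15). Unlike numbers ran from -0.237 to 0.130, and replicate 3 of the systemic leaves is in doubt. Whether the numbers pair the samples was therefore not settled. The replicate block called 0 genes at 0 min too.

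Genes were named by a rule: the 12 highest and 12 lowest called genes whose mean reached 50 in the leaf where they were higher, with no overlap and more than 3 reads in each library. Added to these were the 4 best-read genes with fewer reads on each side, the 5 extremes of each contrast of differences, up to 5 called members of each list and up to 3 that went against its median. Exceptions are marked. The comparison, the lists and the rule were chosen with earlier results of these data known. Symbols are those of RefSeq, matched for 32548 of 32833 identifiers.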

Additional observations from a re-analysis of the deposited data

Results flagged for a closer look

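Some leaf differences changed between 0 and 30 min by a direct test of that change in myb30 (limma, Benjamini-Hochberg adjustment), and the extremes are listed as log2 values of the change. Small heat shock genes and a DnaJ gene gained most: ATHSP22.0 by 14.00, HSP21 by 13.87, AT1G53540 by 12.97, HSP23.6-MITO by 12.73 and AT1G71000 by 11.11. All of these but AT1G53540 had a library with 3 reads or fewer, so their sizes depend on the pseudocount and are no bound. ATCTH changed by -4.76, MIR167d by -4.72, AT1G74675 by -4.28, OFP16 by -4.11 and AT3G15450 by -4.08.

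By a direct test of myb30 against Col, the leaf difference at 30 min was smaller in the mutant for AT3G23170 (-1.50), HSP18.2 (-1.44), AT3G09450 (-1.43), RBL14 (-0.97) and AT4G34550 (-0.95), all in log2 units.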

How the results depend on the processing

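Counts of genes called between lit and unlit leaves stayed within 1.5 times of 8205 under the alternatives run, from 6153 at a threshold of 0.01 to 10768 with equal totals, and leaving out each library gave 6827 to 7972. Genes past 2-fold numbered 634 to 804 and changes of the difference from 0 min 3793 to 4548 when a library was left out. The genotype difference moved most: against 30 calls there were 1 with the 12 libraries at 30 min alone, 65 with DESeq2, 7 with quantile normalization, 11 with equal totals and 7 to 78 with a library left out, 78 without myb30 local replicate 2 and 70 without myb30 systemic replicate 2. The cause was not tested. At 0 min DESeq2 called 1 gene, and leaving out a library gave 0 to 1. The slope on Col ran from 0.806 to 0.867.

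Same-numbered lit and unlit libraries of myb30 at 30 min had deviations correlated at 0.40, -0.136 and 0.449. Unlike numbers ran from -0.545 to 0.249. These values do not settle whether the numbers pair the samples, so counts with and without a replicate block are given. With a replicate block, 9625 genes were called between leaves, 932 past 2-fold, 212 between genotypes, 5883 for the change from 0 min and 0 at 0 min. In 15 jasmonate repressors, factors and targets the block called 3 higher and 1 lower in place of 0, and in 20 wax genes 3 higher and 11 lower.

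Among 4501 checks of 237 named genes, 257 in 59 genes lost their call and 6 reversed: with quantile normalization ABA1 (-0.33), PETC (-0.25), CP12-2 (-0.0174), GAPB (-0.0342) and ACT2 (-0.11), and with equal totals PETC (-0.0313). Exchanging the libraries in doubt was chosen after the data were seen. With 3 libraries a group, genes with few reads have wide errors.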

Other observations

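In the main fit, genes tied to signals that travel between leaves were called in a minority of cases at 30 min. In the list of oxidases, channels and pores 4 of 16 were higher and 1 lower (median 0.04 log2 units), with 2 higher and 7 lower when libraries were scaled to equal totals. The NADPH oxidase gene RBOHC was 0.85, the aquaporin PIP2;1 0.82 and the glutamate receptor-like channel GLR3.3 0.30 higher, and HPCA1, a hydrogen peroxide sensor, was -0.50. Among touch and calmodulin-like genes 1 of 10 were higher and 0 lower, the called gene being TCH2 (0.63). Among ERF and CBF factors 2 of 17 were higher and 0 lower, ERF4 (0.96) and RAP2.4 (0.76). The touch list had a median of 0.52 and the ERF and CBF list 0.26. Their libraries stood far apart, with median SDs between lit libraries of 0.42 and 0.66 log2 units beside 0.13 over all genes. Members not called may therefore still differ.

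Abscisic acid signalling genes were called in both directions: 6 of 16 were higher and 2 lower, or 3 higher and 2 lower with equal totals. All list counts under this heading stand beside 20.6% higher and 21.3% lower over all genes, or 10.4% and 44.6% with equal totals. The phosphatases HAI1 and HAI2, which hold the pathway down, were 1.33 and -1.19, and the bZIP factor ABF3 was 0.67. In the ethylene list 0 of 7 were higher and 2 lower, ACS11 (-1.31) and ACO4 (-0.35). Of leaf senescence genes 3 of 10 were higher and 2 lower, turning to 1 higher and 5 lower with equal totals (median -0.18 in place of 0.03), with the NAC factors ORS1 and NAP at -2.76 and -1.59 and the chlorophyll breakdown gene NYC1 at 0.67. Of leaf age and flowering-time genes 0 of 6 were higher and 4 lower, among them SPL9 (-0.66) and TCP4 (-0.71). All values are log2 differences, lit minus unlit.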
